A study of Homo sapiens with 14 samples.

Results

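Knockdown of PPHLN1, which encodes Periphilin, was set directly against knockdown of TASOR in K562 cells, an established human chronic myeloid leukaemia line, to ask what loss of Periphilin changes beyond loss of TASOR. The genes compared were those of the deposited table with a mean above 0 on the log2 scale in either knockdown, 16056 of 35718 genes. A gene with its other mean below 0 therefore entered only by the knockdown in which it was higher. The PPHLN1 group pooled libraries of 2 guide RNAs (sg1-PPHLN1 and sg2-PPHLN1) and the TASOR group libraries of 2 guide RNAs (sg1-TASOR and sg2-TASOR). All groups were made in cells that carry dCas9-KRAB, an inactive Cas9 fused to a repressor domain that lowers transcription where a guide places it, and total RNA of the transduced groups was taken 7 days after transduction. The other groups, used here for reference values, were knockdowns of MPP8 and TASOR2, cells given the negative control guide sgAAVS1, and untransduced cells.

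The HUSH complex silences transposons, retroviruses, intronless genes and other chromatin targets, and its core is formed by TASOR, MPP8 and Periphilin. TASOR is the scaffold, MPP8 reads the repressive histone mark H3K9me3, and Periphilin binds RNA. TASOR2 is a paralogue of TASOR and marks a second complex, HUSH2, with which MPP8 and Periphilin also act. A comparison of Periphilin with TASOR therefore sets a subunit that both complexes use against one that marks a single complex.

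The deposited values are group means, here as log2 RPM (reads scaled to a fixed library size), so no replicate spread, SD or test over libraries could be had. The geometric mean depth was 5963710 reads per library for PPHLN1 and 6945067 for TASOR, and between 5857937 and 7406968 for the other groups. Each log2 difference, PPHLN1 minus TASOR, is followed by ± and the distance to the end of its 95% counting interval, which covers counting error only. Calls were made by a rule of size: means that differ by 1 or more in log2 RPM, with 0 outside the counting interval. Under it 227 genes were higher in PPHLN1 than in TASOR knockdown (1.41% of the genes compared) and 158 were lower (0.984%), and the median difference of all genes was 0.02. By the same rule 266 genes differed between untransduced and sgAAVS1 cells, 1.68% of 15854, so groups without a knockdown also differed at many genes. Where a mean is said below to lie above or below both controls by the rule, it was called against sgAAVS1 and against untransduced cells, which PPHLN1 and TASOR share. The PPHLN1 and TASOR means behind such counts are those that made the calls, so the counts are partly set by that choice. PPHLN1 was higher than sgAAVS1 at 2.97% of genes and than untransduced cells at 1.60%, and lower at 0.635% and 0.842%. TASOR was higher at 2.01% and 1.31%, and lower at 0.352% and 0.859%. PPHLN1 and TASOR libraries were made with different guides, and the guides of a knockdown share their target. Erythroid markers that define K562 cells (GATA1, KLF1, TAL1 and globin genes) were present in both knockdowns, at 5.23 to 8.42 in PPHLN1 and 4.98 to 8.33 in TASOR, and none of these was called. GP9 and PF4 of the megakaryocyte markers and MS4A1 of the lymphoid ones had no reads in either group.

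**Figure D1:**
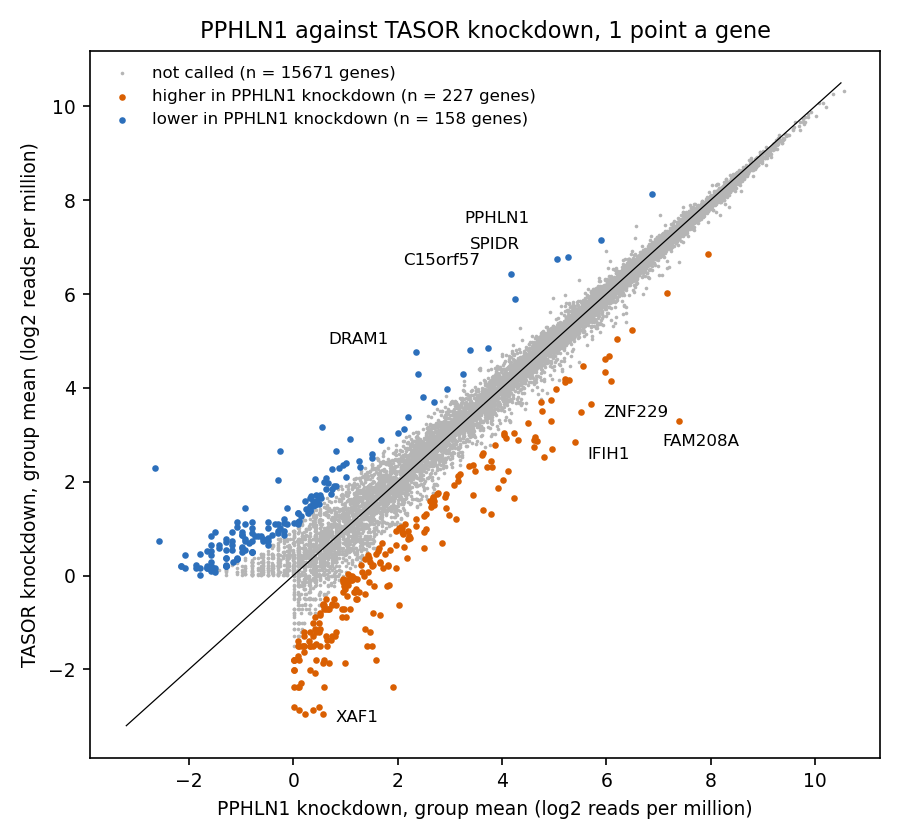
Group mean of each of 16056 genes in PPHLN1 knockdown (horizontal axis, log2 RPM) and TASOR knockdown (vertical axis, same scale), with the line of equal means; colours mark the 227 genes called higher and the 158 called lower. Most called genes lie at the low end of both axes, and FAM208A and PPHLN1 stand far from the line on opposite sides.

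Each target gene was lowest in its own knockdown. FAM208A, the table's name for TASOR, had a mean of 7.39 in PPHLN1 knockdown and 3.29 in TASOR knockdown, and between 7.22 and 7.69 in the other 4 groups. The difference was 4.10 ± 0.25. PPHLN1 had a mean of 5.27 in PPHLN1 knockdown and 6.80 in TASOR knockdown, a difference of -1.52 ± 0.15, and between 6.57 and 6.80 in the other groups. TASOR knockdown left 6.56% of the sgAAVS1 level of its target and PPHLN1 knockdown left 40.8% of its own, so the depth of knockdown was unequal. The other subunits were not called between the knockdowns: MPHOSPH8, which encodes MPP8, had means of 6.64 in PPHLN1 and 6.70 in TASOR, and FAM208B, which encodes TASOR2, had means of 8.18 in PPHLN1 and 7.68 in TASOR, a difference of 0.50 ± 0.07.

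A gene that starts beside a start site of PPHLN1 was also lower in its knockdown. ZCRB1, which encodes a protein of the minor spliceosome, lies on the opposite strand, and its 5′ end in the table (chromosome 12, position 42326118 on hg38) is separated by 48 bases from a RefSeq start of PPHLN1 (position 42326167). The stretch is shown because both genes start at its ends. The letters are RefSeq's, GRCh38.p14, plus strand, chr12:42326089-42326196, and capitals mark the bases between the starts.
PPHLN1 and ZCRB1: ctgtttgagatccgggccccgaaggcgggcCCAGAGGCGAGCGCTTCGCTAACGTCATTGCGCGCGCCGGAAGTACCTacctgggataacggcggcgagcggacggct
ZCRB1 had a mean of 4.97 in PPHLN1 knockdown and 5.91 in TASOR knockdown, and 5.80 to 5.96 in the other groups. Its difference of -0.94 ± 0.18 fell just short of the size the rule asks for. YAF2, a Polycomb-associated gene that starts 97 bases from the 5′ end of the table's PPHLN1 model, on the opposite strand, had means of 5.27 in PPHLN1 and 5.27 in TASOR. The 2 starts of PPHLN1 lie 87.7 kb apart, so the values of its neighbours parted at one start and not at the other. RP11-351C21.2, a noncoding gene inside the PPHLN1 span on the same strand (chromosome 12, 42361267 to 42361703), had a mean of -2.65 in PPHLN1 knockdown, from 0 and 1 reads, and 2.29 in TASOR knockdown, a difference of -4.94 ± 2.08. GXYLT1, another neighbour of PPHLN1, and CCDC66, the neighbour of FAM208A, differed by 0.02 ± 0.15 and -0.00 ± 0.15. The sources used here do not give the sites where the guides bind.

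Some genes of double-stranded RNA sensing and the interferon response were higher in PPHLN1 than in TASOR knockdown, and none of them was lower. In vertebrate cells, sensors such as MDA5 bind double-stranded RNA, signal through MAVS and lead to interferon, which in turn raises a broad set of antiviral genes. IFIH1, which encodes MDA5 (chromosome 2, 162267079 to 162318703), had a mean of 5.40 in PPHLN1 and 2.84 in TASOR, beside 5.04 in MPP8, 5.39 in TASOR2, 2.64 in sgAAVS1 and 3.16 in untransduced cells. PPHLN1 was 5.88-fold above TASOR, a log2 difference of 2.56 ± 0.31. The TASOR mean lay between the 2 control means, and the other knockdowns lay near PPHLN1. In bulk RNA, a change in a few cells and a smaller change in all cells cannot be told apart, nor can fewer cells of a type and less RNA per cell. Of 17 sensing genes compared, 3 were higher (17.6%, beside 1.41% of all genes), none lower and 14 not called. Their median difference was 0.16. The higher genes were IFIH1, OAS3 and DHX58. OAS3, which makes the second messenger of RNase L, had 6.49 in PPHLN1 and 5.23 in TASOR. DHX58, which encodes the sensor LGP2, had 5.04 and 3.97. MAVS, the adaptor of the pathway, had means of 9.25 and 9.24.

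GCA, a calcium-binding protein gene that starts 136 bases from the table's 5′ end of IFIH1 on the opposite strand, was higher too, with a mean of 0.99 in PPHLN1 and -1.87 in TASOR and 0.63, 0.61, -1.63 and -1.89 in MPP8, TASOR2, sgAAVS1 and untransduced cells. Of 1256 pairs of compared genes with 5′ ends head to head within 1000 bases (or overlapping by up to 200), 16 held a gene called higher and in 6 of these both were. Of 19 pairs with a gene called lower, none had both lower. The other 5 pairs lie on chromosome 19, some share a gene, and 3 hold a zinc finger gene with a noncoding gene. Among their members and GCA, the TASOR means of GCA, CTD-2162K18.4, ZNF829 and ZNF568 were below 0. These genes entered only by their PPHLN1 means. Of all genes 1.41% were higher and 0.984% lower, and whether paired genes share calls more often than other genes was not tested.

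Among interferon-stimulated genes 15 of 64 were higher, none lower and 49 not called, 23.4% higher beside 1.41% of all genes, and the list's median difference was 0.31. SP110, a nuclear body gene, had means of 5.52 in PPHLN1 and 3.49 in TASOR, a difference of 2.03 ± 0.26. SAMD9, an antiviral factor, had 6.09 in PPHLN1 and 4.14 in TASOR, a difference of 1.95 ± 0.21, beside 5.89 in MPP8, 6.15 in TASOR2, 3.24 in sgAAVS1 and 3.08 in untransduced cells. For SAMD9 the TASOR mean lay between PPHLN1 and the controls. DDX60L, a helicase gene related to the antiviral DDX60, had 4.68 in PPHLN1 and 2.86 in TASOR, and APOL3, an apolipoprotein L gene, 4.11 and 2.22. OAS3, given above, is 1 of the 15, and others were IFI6, SAMD9L, HERC6, APOL2, TRIM34, IFIT2, MX1, TRIM22 and USP18, with differences of 1.13 ± 0.80 (USP18) to 2.33 ± 1.11 (HERC6). XAF1, a pro-apoptotic interferon target, had no reads in either TASOR library and a mean of 0.57 in PPHLN1, and was at least 6.86-fold higher in PPHLN1 against the limit of 3 counts over the TASOR group. XAF1, HERC6, IFIT2 and MX1 had TASOR means below 0, so they entered the comparison only by their PPHLN1 means. In 13 of the 15, all but TRIM34 and TRIM22, the PPHLN1 mean was also above both control means by the rule, and in none was the TASOR mean below both.

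The genes that carry the interferon signal itself were nearly all uncalled. Of 20 genes of interferon signalling 1 was higher (5%, beside 1.41% of all genes) and none was lower. The higher gene was USP18, a feedback inhibitor that the interferon-stimulated list also holds. STAT2 had means of 7.82 in PPHLN1 and 7.77 in TASOR, JAK1 7.90 and 7.83, and TYK2 8.04 and 7.96. Against MPP8, none of the 64 interferon-stimulated genes was called higher or lower in PPHLN1, where 0.891% of all genes were called higher and 0.608% lower, and the list's median difference from MPP8 was 0.14.

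Antigen presentation genes gave 6 higher of 18 (33.3%, beside 1.41% of all genes) and none lower, with a median difference of 0.38. PSMB9 and PSMB8, catalytic subunits of the immunoproteasome, had means of 3.79 and 3.64 in PPHLN1 and 1.32 and 1.39 in TASOR, differences of 2.48 ± 0.53 and 2.25 ± 0.52. Their control means ran from 1.32 to 1.59, so TASOR lay at the controls. TAP1, a subunit of the peptide transporter, had 6.04 in PPHLN1 and 4.68 in TASOR. The class I genes HLA-C and HLA-B had 4.77 and 3.49 in PPHLN1 and 3.51 and 2.23 in TASOR, and TAPBPL, a peptide editor, 2.68 and 1.65. HLA class I genes are near copies of each other, so their single values are uncertain, and the annotated span of HLA-C covers most of HLA-B. The span of PSMB9 overlaps that of PSMB8 and holds all of TAP1, both on the opposite strand. Reads may be shared between these overlapping genes, so they are not separate places in the genome. In all 6 genes the PPHLN1 mean was above both controls by the rule.

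**Figure D2:**
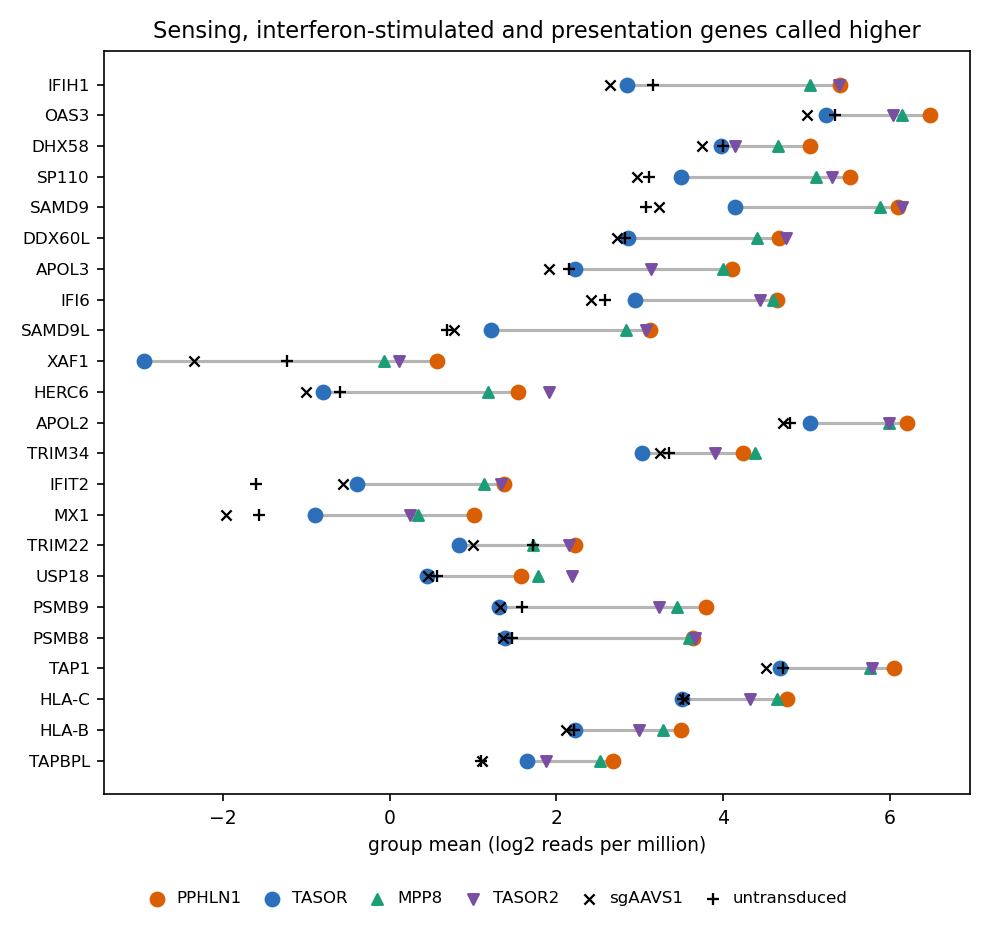
Group means (log2 RPM) of the 23 sensing, interferon-stimulated and antigen presentation genes called higher in PPHLN1 than in TASOR knockdown, 1 row a gene, with a grey line that joins the PPHLN1 and TASOR means. TASOR means lie close to the sgAAVS1 and untransduced means in most rows, as for IFIH1 (2.84 beside 2.64 and 3.16), and MPP8 and TASOR2 means lie towards PPHLN1.

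The core of the interferon-stimulated response element, read as GAAANNGAAA on either strand, stands before the start of several of these genes. The stretches before the starts of 3 genes are shown because each of them holds the motif. They are RefSeq's on GRCh38.p14, written 5′ to 3′ along the minus strand on which the genes lie, with each match in capitals: IFIH1 at chr2:162318685-162318869, SAMD9 at chr7:93117994-93118229 and IFI6, an interferon-induced mitochondrial protein gene, at chr1:27672193-27672442.
IFIH1: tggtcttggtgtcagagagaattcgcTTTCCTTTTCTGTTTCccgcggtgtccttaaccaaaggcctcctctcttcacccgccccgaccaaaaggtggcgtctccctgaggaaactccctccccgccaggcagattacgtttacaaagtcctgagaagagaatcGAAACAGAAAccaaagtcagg
SAMD9: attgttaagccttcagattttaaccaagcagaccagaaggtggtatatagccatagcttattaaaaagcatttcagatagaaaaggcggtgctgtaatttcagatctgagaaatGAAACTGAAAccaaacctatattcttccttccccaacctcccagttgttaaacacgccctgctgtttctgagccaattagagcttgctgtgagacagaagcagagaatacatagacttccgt
IFI6: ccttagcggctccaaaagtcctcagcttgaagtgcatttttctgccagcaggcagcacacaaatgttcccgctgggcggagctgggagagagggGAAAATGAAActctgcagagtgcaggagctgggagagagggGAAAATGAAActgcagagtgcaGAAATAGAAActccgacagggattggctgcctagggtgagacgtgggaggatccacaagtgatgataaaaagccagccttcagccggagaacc
IFIH1 held 3 matches, 2 of them overlapping on the reverse strand near the start of GCA, of which the stretch holds up to 30 bases, and 1 that begins 21 bases before its own start. SAMD9 held 1 match, 136 bases before the start, and IFI6 held 3, from 156 to 93 bases before it. Of all 35116 RefSeq windows of 300 bases, 3.57% hold the motif. Some uncalled genes of the same lists hold it too, so the 3 stretches do not mark called genes. A window was found for 73.9% of the 23 genes called higher in these lists and for 75.7% of the protein-coding genes called higher, under the 80% needed, so a check of the motif over called genes is void and no share is given. IFI6 had means of 4.64 in PPHLN1 and 2.94 in TASOR, a difference of 1.70 ± 0.32.

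Inflammatory genes gave 2 higher of 14 (14.3%, beside 1.41% of all genes) and none lower. In neither of the 2 was the PPHLN1 mean above both controls. IL32, a cytokine gene, had means of 1.47 in PPHLN1 and -1.21 in TASOR, with -0.44 in sgAAVS1 and 0.61 in untransduced cells. CXCL8, a neutrophil chemokine gene, had 4.03 in PPHLN1 and 2.99 in TASOR, but its controls stood apart at 4.20 in sgAAVS1 and 2.30 in untransduced cells.

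Zinc finger genes of chromosome 19 were the other large source of genes called higher in PPHLN1, though most of them were not called. KRAB zinc finger proteins bind transposons and recruit TRIM28 and the H3K9 methyltransferase SETDB1, and their own genes lie in clusters on chromosome 19 under H3K9me3. Of 230 numbered zinc finger genes of that chromosome 30 were higher, 1 lower and 199 not called, 13.0% higher beside 1.41% of all genes, with a median difference of 0.17. Of 230 numbered zinc finger genes on other chromosomes 2 were higher and 2 lower, 0.870% each, with a median of 0.01. The other genes of chromosome 19 gave 26 higher and 8 lower of 1121, 2.32% higher. In 27 of the 30 the PPHLN1 mean, which also made the call, was above both controls by the rule. These genes are alike in sequence, so reads may be shared between members. Of those called higher, ZNF829, ZNF568, ZNF256, ZNF233, ZNF625, ZNF549, ZNF540 and ZNF676 had TASOR means below 0 and entered only by their PPHLN1 means.

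The higher genes were unevenly spread over the clusters. In the cluster from ZNF574 to ZNF296 (chromosome 19, 42068477 to 45076588) 11 of 26 were higher, with a median of 0.73, and in the cluster from ZNF302 to ZNF573 (34677639 to 37817300) 7 of 29, with a median of 0.40. In the large cluster at the end of the chromosome, from ZNF628 to ZNF446, 3 of 53 were higher and 1 lower, with a median of 0.16. The stretch between the outermost higher zinc finger genes of a cluster is given as a description, since its ends were set by genes called higher, which raises its share. From ZNF404 to ZNF229, a stretch of 576 kb, 15 of 25 compared genes of any kind were higher and none lower, and every one of the 25 differed in that direction, by 0.33 or more. From ZNF461 to ZNF540, a stretch of 977 kb, 11 of 23 were higher and none lower, and the smallest difference was 0.08. From ZNF836 to ZNF677, in the cluster from ZNF175 to ZNF331, 6 of 29 were higher, with a median of 0.08 and differences down to -0.90, and from ZNF549 to ZNF606, in the cluster at the end of the chromosome, 4 of 22, with a median of 0.33.

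ZNF578, of the cluster from ZNF175 to ZNF331, had means of 4.23 in PPHLN1 and 1.66 in TASOR, a difference of 2.57 ± 0.47, with 3.14 in MPP8, 2.70 in TASOR2, 1.43 in sgAAVS1 and 1.05 in untransduced cells. ZNF229 had 5.70 in PPHLN1 and 3.66 in TASOR, a difference of 2.05 ± 0.24, and 5.05, 4.48, 3.30 and 3.91 in MPP8, TASOR2, sgAAVS1 and untransduced cells. For both genes PPHLN1 was the highest of the 6 means and TASOR lay near the controls. ZNF829 and ZNF568, which start 37 bases apart on opposite strands, were both higher, by 3.01 ± 1.37 and 2.03 ± 0.93. ZNF256 had 2.03 in PPHLN1 and -0.64 in TASOR, a difference of 2.67 ± 1.03. ZNF528-AS1, a noncoding gene on the strand opposite ZNF528, had 4.80 in PPHLN1 and 2.53 in TASOR, and ZNF528 itself 5.98 and 4.33. CTD-2162K18.4, a long noncoding gene beside ZNF850, had means of 1.91 in PPHLN1 and -2.37 in TASOR, with TASOR libraries of 0 and 2 reads, and the largest difference of all higher genes, 4.28 ± 1.78. The sources used here do not give whether strand was used in counting, so reads of these antisense pairs cannot be told apart.

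Of the 230 chromosome 19 genes 8 were called higher in PPHLN1 than in MPP8 and 1 lower, beside 0.891% and 0.608% of all genes. Their median difference from MPP8 was 0.13, close to the 0.14 of the interferon-stimulated genes, and a difference between these lists was not tested. ZIK1, whose name carries no ZNF number, had means of 4.61 in PPHLN1, 2.89 in TASOR, 4.19 in MPP8, 2.88 in TASOR2 and 0.94 in sgAAVS1, and untransduced cells lay between sgAAVS1 and TASOR2. TASOR knockdown thus lay between PPHLN1 and the controls for ZIK1, where it lay at the controls for ZNF229. The single lower gene, ZNF784, had 3.74 in PPHLN1 and 4.86 in TASOR, a difference of -1.12 ± 0.26, and 4.94, 4.30, 4.57 and 4.56 in MPP8, TASOR2, sgAAVS1 and untransduced cells.

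**Figure D3:**
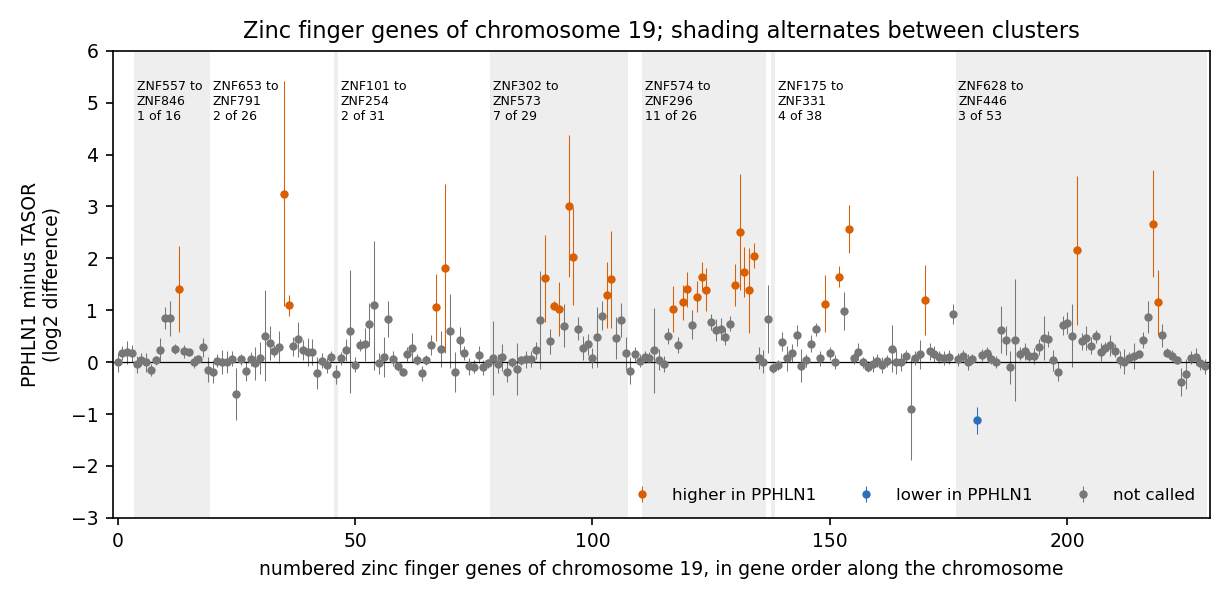
Log2 difference, PPHLN1 minus TASOR, of 230 numbered zinc finger genes of chromosome 19 in gene order, with the 95% counting interval as a bar; shading alternates between clusters and the text in the plot gives genes called higher of those compared. The 11 higher genes of the cluster from ZNF574 to ZNF296 lie close together, with genes not called between them, and the cluster from ZNF628 to ZNF446 has 3 of 53.

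The gamma protocadherins, neuronal adhesion genes that share their last exons, did not part the knockdowns. None of 22 was higher or lower, where 1.41% of all genes were higher and 0.984% lower. The median difference was -0.03, and the differences ran from -0.59 to 0.39. PCDHGA4 had means of 5.19 in PPHLN1, 4.95 in TASOR, 4.83 in MPP8, 2.64 in TASOR2, 3.15 in sgAAVS1 and 3.53 in untransduced cells. PCDHGB2 had 4.91, 4.69, 4.31, 2.77, 2.70 and 3.28 in the same groups. PPHLN1, TASOR and MPP8 were thus above the other 3 means in both genes, while for IFIH1 and ZNF229 TASOR lay with the controls. Values of single members are uncertain because of the shared exons.

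Among germline genes 2 of 32 were higher and none lower, 6.25% beside 1.41% of all genes, with a median difference of 0.16. NPAP1, an imprinted single-exon gene of the Prader-Willi region expressed in testis, had means of 4.96 in PPHLN1 and 2.70 in TASOR, a difference of 2.26 ± 0.33, with 3.74 in MPP8, 3.28 in TASOR2, 2.09 in sgAAVS1 and 2.93 in untransduced cells. TEX19, a germline gene that restrains retrotransposons in mouse, had 4.74 and 3.70 in PPHLN1 and TASOR. NPAP1 and TEX19 were the germline genes called. Among protein-coding genes whose GENCODE transcripts all have 1 exon 6 of 260 were higher (NPAP1, NDN, CETN1, DCAF8L1, RBMXL3 and SOWAHD) and 2 lower, 2.31% and 0.769%, beside 1.28% and 0.762% of genes with more exons. ERVV-2, an envelope gene of an endogenous retrovirus, had means of 0.08 in PPHLN1 and -2.37 in TASOR, a difference of 2.46 ± 1.90.

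The remaining genes that lead the higher group have immune or unknown roles. GIMAP2, an immune-associated GTPase gene, had 3.92 in PPHLN1 and 1.87 in TASOR, a difference of 2.05 ± 0.45, and 3.71, 3.35, 1.38 and 1.85 in MPP8, TASOR2, sgAAVS1 and untransduced cells. SIRPB2, a signal-regulatory protein gene, had 1.59 in PPHLN1 and -1.80 in TASOR, a difference of 3.39 ± 1.49, and no more than -0.41 in any other group, so its PPHLN1 mean stood alone. A few genes were parted by a low TASOR mean instead. SMPD3, a neutral sphingomyelinase gene, had 4.61 in PPHLN1 and 2.75 in TASOR and between 3.76 and 4.44 in the other groups. TTI1, whose protein helps to assemble mTOR and related kinases, had 7.17 in PPHLN1 and 6.03 in TASOR and 6.93 to 7.13 elsewhere, and was chosen for mention after its values were seen. Of the 227 higher genes, PPHLN1 was above both controls in 100 by the rule, TASOR below both in 8, and neither held in 119.

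The genes lower in PPHLN1 than in TASOR were few in every list, and megakaryocyte and platelet genes had the largest share of the lists with 12 or more genes compared, 2 of 13 or 15.4%, beside 0.984% of all genes. In 12 of the leading 15, PPHLN1 itself and RP11-351C21.2 among them, the PPHLN1 mean was below both controls by the rule, and in the other 3 neither mean was apart. C15orf57 (current symbol CCDC32, an endocytosis gene, chromosome 15, 40528683 to 40565057) had a mean of 4.18 in PPHLN1 and 6.43 in TASOR, a difference of -2.25 ± 0.21, and 6.23 to 6.30 in the other groups. UBL7, a ubiquitin-like protein gene, had 4.25 in PPHLN1 and 5.90 in TASOR, and 5.65 to 5.76 elsewhere. MGST1, a membrane-bound glutathione transferase gene, had 2.38 in PPHLN1 and 4.30 in TASOR, a difference of -1.92 ± 0.40, and 4.16 to 4.68 elsewhere. In these genes the TASOR mean lay among or near the other means and PPHLN1 alone was low.

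DRAM1, a lysosomal gene that takes part in autophagy, had 2.36 in PPHLN1 and 4.76 in TASOR, a difference of -2.40 ± 0.39. It was the only 1 of 41 autophagy and lysosome genes called (2.44%). MGST1 was the only 1 of 25 glutathione and oxidative stress genes (4%), beside 0.984% of all genes called lower. PLXNB2, a semaphorin receptor gene, had 6.87 in PPHLN1 and 8.14 in TASOR, and 7.59 to 8.01 elsewhere. FAM43A, of unknown role, had 0.83 and 2.66. Other leading genes had PPHLN1 and TASOR means on either side of the controls: the chemokine receptor gene CCR4 had -0.28 in PPHLN1 and 2.03 in TASOR, with 1.32 in sgAAVS1 and 0.63 in untransduced cells, and the T cell kinase gene TXK had 1.08 and 2.92, with 2.24 and 1.62. PTGR1, a prostaglandin reductase gene, had -2.58 in PPHLN1, from 1 read in each library, and 0.73 in TASOR. Of the 158 lower genes, PPHLN1 was below both controls in 28, TASOR above both in 17, and neither held in 113.

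**Figure D4:**
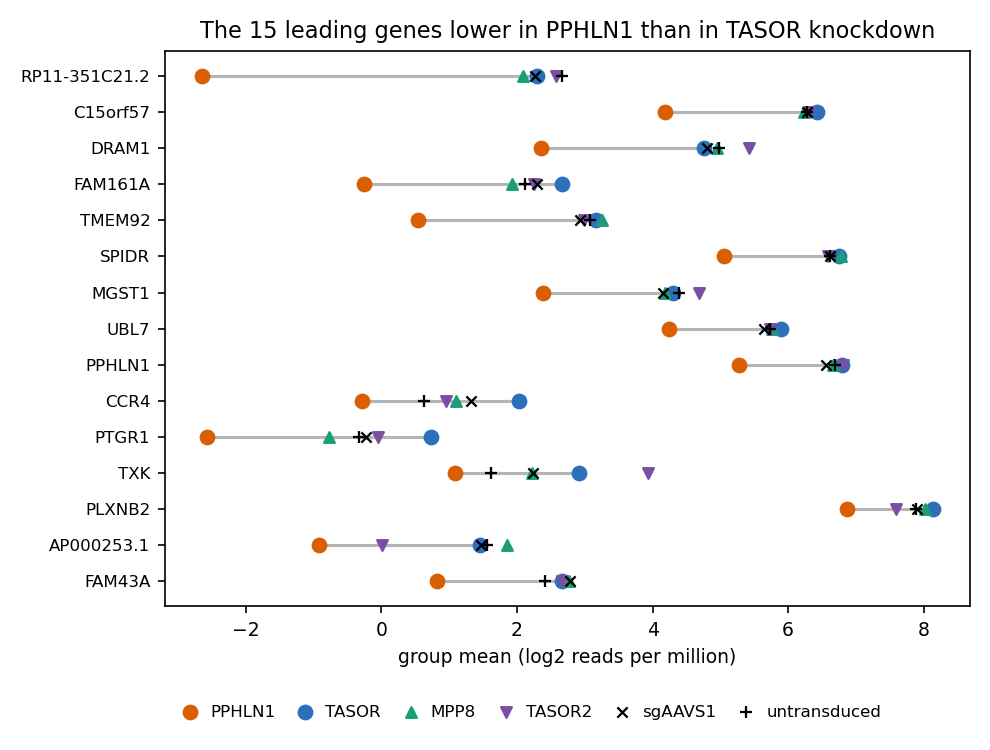
Group means (log2 RPM) of the 15 leading genes lower in PPHLN1 than in TASOR knockdown, 1 row a gene, with a grey line from the PPHLN1 to the TASOR mean. In C15orf57, UBL7, SPIDR and MGST1 the PPHLN1 mean stands alone to the left, and in CCR4, PTGR1 and TXK the control means lie between PPHLN1 and TASOR.

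For some of these genes the means show that the libraries of the 2 PPHLN1 guides were unlike. Because a mean of 2 log2 values fixes the product of the 2 read counts, and low products came out whole, the product can be read back for genes with few reads. A gene with 0 reads in 1 library leaves a product that is a multiple of 0.9, the value the table gives to 0 reads. FAM161A, a gene of the ciliary base, had means of -0.25 in PPHLN1 and 2.66 in TASOR, and its PPHLN1 mean came from 0 reads in one library and 28 in the other. At the mean depth, 28 reads correspond to 2.23, between the values of 2.12 in untransduced and 2.30 in sgAAVS1 cells. TMEM92, a membrane protein gene, had means of 0.54 in PPHLN1 and 3.17 in TASOR, from 0 and 84 PPHLN1 reads, and 84 reads correspond to 3.82. SPIDR, a DNA repair scaffold gene, had 5.06 in PPHLN1 and 6.75 in TASOR, and its PPHLN1 product of 39467 allows no pair less unequal than 61 and 647 reads, a 10.6-fold difference. For these 3 genes the lower PPHLN1 mean was therefore carried by 1 of the 2 libraries. For DRAM1 the least unequal pair was 17 and 55 reads, 3.24-fold apart.

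AP000253.1, a noncoding gene among the leading 15, had 0 and 11 reads in the PPHLN1 libraries. Over all genes, 0 reads in 1 library with 20 or more in the other occurred for 2 genes in PPHLN1, 1 in TASOR2, and 0 in TASOR, MPP8 and untransduced cells. With 10 or more reads in the other library the counts were 4 in PPHLN1, 2 in TASOR, 1 in MPP8, 14 in TASOR2 and 3 in untransduced cells, so TASOR2 had the most. Libraries more than 4-fold apart at best, with 20 or more reads, were found for 4 genes in PPHLN1, 1 in TASOR, 0 in MPP8, 32 in TASOR2 and 3 in untransduced cells. Among the 158 lower genes 16 had 0 reads in 1 PPHLN1 library, and among the 227 higher genes 15 had 0 reads in 1 TASOR library and 2 in both. Which guide gave the low library and the depth of each single library are not known from the table, and a pair given here is a bound on how alike the libraries could be, not their counts. Among genes with a resolved product and no 0, PPHLN1 libraries were at best over 2-fold apart for 29 of the 158 lower genes and over 4-fold for 11, and TASOR libraries for 26 and 5 of the 227 higher genes. The TASOR libraries were at least 2.15-fold apart for IFIH1 and 2.61-fold for NPAP1, and the PPHLN1 libraries at least 2-fold for MGST1. A product that allows equal pairs does not show that the libraries agreed.

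The other lists held few or no called genes. Of all genes 1.41% were higher and 0.984% lower, and at these shares lists of such sizes hold few called genes. A count of 0 therefore does not set a list apart from all genes. Erythroid genes gave 0 of 47 with a median of 0.11, ribosomal protein genes 0 of 80 with a median of 0.13, mitochondrially encoded genes 0 of 13 with a median of 0.11, and histone genes 0 of 55 with a median of 0.04. Mitosis genes gave 0 of 24, DNA replication genes 0 of 45, heat shock genes 0 of 16, and cholesterol and fatty acid synthesis genes 0 of 26. EPB41, an erythroid membrane skeleton gene, had 9.10 in PPHLN1 and 8.99 in TASOR, RPL37 8.03 and 8.10, MT-ND4 8.50 and 8.42, HIST1H2AG 7.39 and 7.28, and MKI67, a proliferation marker, 9.38 and 9.29. H3K9 methylation genes and HUSH effectors gave 0 of 21 with a median of -0.00, with TRIM28 at 8.49 and 8.36 and CBX5 at 9.62 and 9.67. Retroelement restriction genes gave 0 of 21, and ADAR, the RNA-editing enzyme, had 8.81 and 8.65. Lymphoid genes gave 0 of 9, and fibroblast, epithelial and endothelial genes 0 of 8.

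Lower genes were also found among megakaryocyte, myeloid, ATF4 stress, LINC and antisense genes. GP6, the platelet collagen receptor gene, had means of 3.39 in PPHLN1 and 4.82 in TASOR, a difference of -1.43 ± 0.29, but 2.94 to 4.26 in the other groups. THBS1, a platelet and matrix glycoprotein gene, had 1.26 and 2.45, with 2.02 in sgAAVS1 and 1.43 in untransduced cells. These were the 2 of 13 megakaryocyte genes called, 15.4% beside 0.984% of all genes. CD14, a monocyte surface gene, was the only 1 of 13 myeloid genes called (7.69%), with -2.15 in PPHLN1 and 0.20 in TASOR. That call was lost with a 99% counting interval. VLDLR, a lipoprotein receptor gene, was the only 1 of 35 genes of the ATF4 stress list (2.86%), with a difference of -1.08 ± 0.58. LINC genes gave 8 higher and 1 lower of 189 (4.23% and 0.529%), and genes named as antisense 8 and 4 of 357 (2.24% and 1.12%). ZSCAN, ZKSCAN and ZFP genes gave 1 higher of 36 (2.78%), ZSCAN18 of chromosome 19 (5.29 in PPHLN1 and 4.17 in TASOR). Of all genes 1.41% were higher and 0.984% lower.

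**Figure D5:**
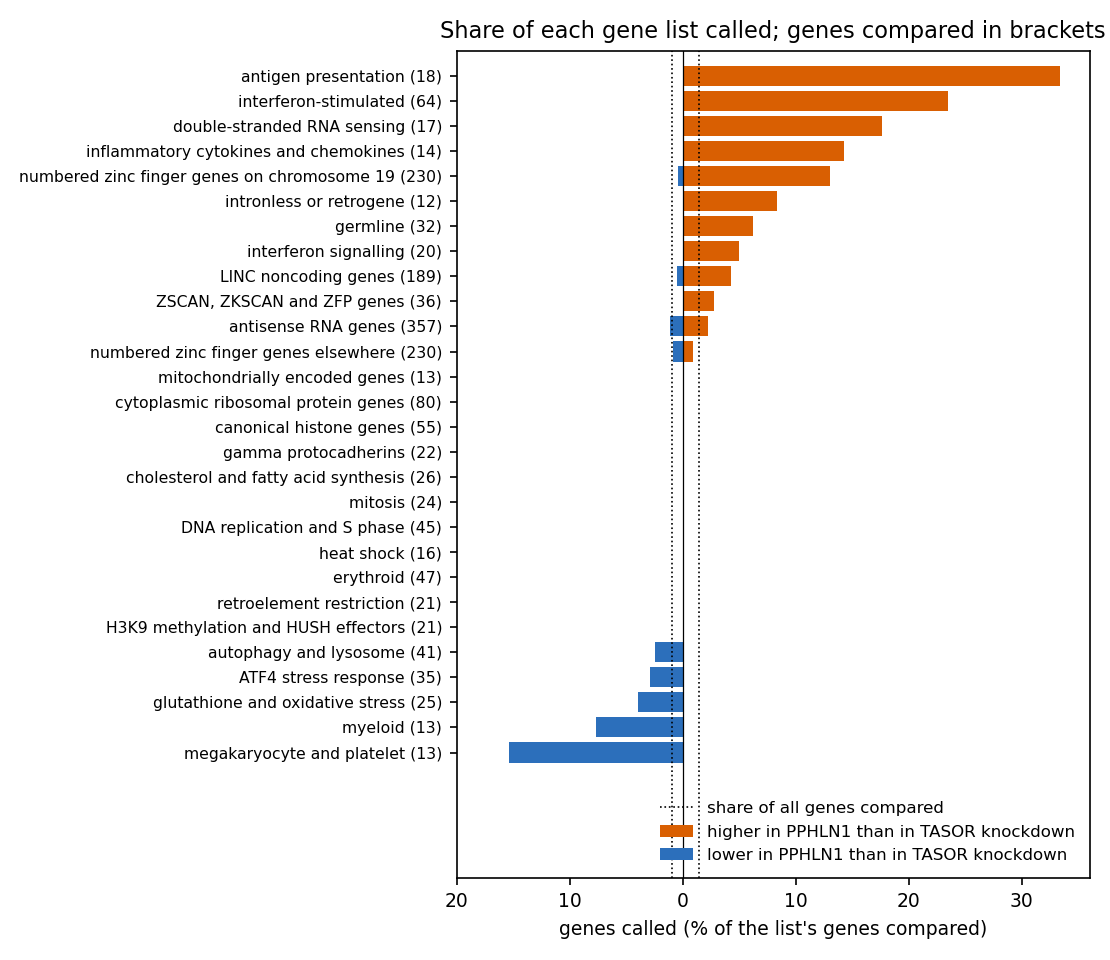
Percent of each list's compared genes called higher (right) or lower (left) in PPHLN1 than in TASOR knockdown, for lists with 12 or more genes compared (number in brackets); dotted lines mark the share of all genes, 1.41% higher and 0.984% lower. Antigen presentation (6 of 18), interferon-stimulated (15 of 64), sensing (3 of 17) and chromosome 19 zinc finger genes (30 of 230) extend furthest to the right among lists of 15 or more genes, and the bars of lists under 20 genes rest on 1 to 6 genes.

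Called genes were mostly of low level. Where the average of the 2 means was at most 0, 68 of 407 genes were higher and 61 lower, and where it was above 6, 2 of 7089 were higher and 3 lower. Genes with an average of at most 0 entered only by their higher mean. Their 2 means thus lay apart by the filter itself, which raises their share of calls. Of the 227 higher genes 54 had a higher mean above 3, and of the 158 lower genes 18. Among the chromosomes, 19 had 56 higher and 9 lower of 1351 genes, 4.15% and 0.666%, and chromosome 20 had 11 and 2 of 426, while chromosomes 5 and 9 had 1 higher each of 676 and 595 genes and 8 and 12 lower. Median gene length was 18.7 kb for higher, 16.8 kb for lower and 25.3 kb for genes not called. Protein-coding genes gave 169 higher and 99 lower of 12998 (1.30% and 0.762%). Long intergenic noncoding genes gave 24 and 15 of 874 (2.75% and 1.72%), and genes annotated as antisense 21 and 18 of 1015 (2.07% and 1.77%). Near the size threshold, 39 higher and 21 lower genes differed by 1 to 1.1, and 26 and 26 genes with a counting interval without 0 differed by 0.9 to 1 and were not called.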

How the data were processed

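Per the labels' protocols, total RNA was depleted of ribosomal RNA and made into strand-specific libraries. Per the submitters' processing notes, cutadapt, Bowtie2 and build hg38 were used; the sources used here do not give the counter, the annotation, the use of strand or the handling of duplicates. What the authors deposited is 35805 gene rows of log2 group means, of which 1 column is the untransduced mean and 5, per the file headers and the values, are the quotients of another group's mean and that one. Each quotient was multiplied by the untransduced mean. In 102 rows the untransduced value is within 0.05 of 0 and rounding can blur the result. Of rows with the same symbol the highest by mean was kept (87 dropped), and 0 value columns were left unused. The labels list 14 libraries in 6 groups.

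Low values were those of averaged log2 read numbers, 0 being entered as 0.9, and the product of the libraries' reads was whole within 0.02, for 2 libraries a group and 3 for sgAAVS1; TASOR2 has 3 in the labels, and the sources used here do not say which 2 entered. Depth was taken from what 1 read is worth, and 0 reads allow up to 3 counts over a group. Counting intervals (95%, Poisson) cover counting error only, and differences compare these libraries, not replicated conditions. The test over libraries planned for single-library values was replaced by the rule of size, because the table holds means; it was tested on simulated counts. Genes named are the 15 higher and 15 lower with the interval bound farthest from 0, the targets and neighbours within 100 kb, and up to 4 members of each list, with others said to be chosen after their values were seen or given as the full set of a count. Genes given for the single-exon, head-to-head and other counts were also chosen after their values were seen, as were ZIK1, ERVV-2, GCA and SMPD3. The members and lists were chosen with earlier results of these data known. Gene types, exons and GC are GENCODE release 29, matched by symbol or by 90% overlap. Promoter windows (250 bases before to 50 after a start) are RefSeq's. Zinc finger clusters were split at gaps over 1.5 Mb. Python 3.11.15, numpy 2.4.6, pandas 2.3.3 and matplotlib 3.10.9 were used.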

Additional observations from a re-analysis of the deposited data

How the results depend on the processing

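No paired analysis was possible because the table holds 1 mean a group; for the same reason leaving out each guide was not run. Against 227 higher and 158 lower genes, a filter of 2 on the higher mean left 90 and 35, adding 1 RPM to both means left 71 and 26, a size of at least 1.5 left 108 and 73, and a 99% counting interval left 159 and 90. Median centring gave 217 and 168, quantile normalization 243 and 138, no filter 249 and 185, and removing the trend on transcript GC 222 and 153. Leaving out genes counted as having 0 reads in 1 library only, chosen after seeing the data, gave 212 and 142. Higher calls made up 59.0% of all calls, 72% with the filter of 2 and 73.2% with 1 RPM added. Of 64 interferon-stimulated genes 10 to 16 were higher under these settings. With a size of 1.5, sensing genes higher were 1, presentation genes 2 and chromosome 19 zinc finger genes 14; with 1 RPM added the last were 17. With 1 RPM added 14 of 140 named genes checked lost their calls, among them CD14, CXCL8, PTGR1, TEX19, THBS1, USP18 and VLDLR. Interferon-stimulated genes called higher were then 12 and presentation genes 5. With the 99% interval 3 of the 140 lost their calls, CD14 among them. No gene named by the rule reversed under any setting run. The 2 guides of each knockdown cannot be told apart here, and genes with few reads limit most of the calls.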
